A study of Setaria viridis with 40 samples.

Results

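The heat response of *Setaria viridis* leaves was compared between 2 h and 4 h of high temperature. The measure was the difference of differences, the log2 heat effect at 4 h (HT_4h over ctrl_4h) minus the log2 heat effect at 2 h (HT_2h over ctrl_2h), so that a positive value means a higher heat effect at 4 h. The 4 groups of this comparison hold 16 of the 40 libraries of the series, and 14293 of the 38239 listed genes had enough counts to be tested.

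All plants were *S. viridis* ME034, a C4 grass accession that is grown as a model for maize and sorghum. HT_2h and HT_4h leaves were kept at 40 °C for 2 and 4 h, and ctrl_2h and ctrl_4h leaves stayed at 31 °C under 250 μmol photons m-2 s-1 for the same times. RNA came from mid-leaf pieces of the fourth true leaf, and a replicate pooled 2 segments cut from 2 plants. Each group had 4 such replicates, A to D, and libraries were made with a 3′ mRNA kit that reads the end of each transcript.

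Heat unfolds proteins, and plant cells answer by making molecular chaperones. Small heat shock proteins (HSPs) hold unfolding proteins, HSP70 and HSP90 refold them with the help of co-chaperones, and chaperonins enclose them in a chamber. The genes are switched on by heat shock transcription factors (HSFs). This induction is known to be quick and to weaken as chaperones accumulate, while other changes of metabolism and photosynthesis can take longer to appear. Leaf transcripts also follow the time of day, so that a heat effect can differ between 2 time points because treated leaves moved, because control leaves moved, or both.

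The 16 libraries held between 3002028 and 4901131 counts. Marker genes of both leaf cell types were present in every group. The summed level of 4 mesophyll markers was 1.13 times as high in HT_2h as in ctrl_2h leaves (exact permutation test, two-sided p = 0.114) and 1.24 times as high in HT_4h as in ctrl_4h leaves (p = 0.0571). That of 4 bundle sheath markers was 0.879 times as high at 2 h (exact permutation p = 0.02857, the smallest that 4 against 4 libraries allow) and 1.03 times at 4 h (exact permutation p = 0.743). NADP-ME had a mean of 3872 TPM in HT_2h and 5619 TPM in ctrl_2h leaves. PRK and RBCS_C were also lower in HT_2h leaves, while RBCS_A was higher with 5405 against 4944 TPM. PPDK made up 11626 of the 11727 TPM of the mesophyll sum in HT_2h leaves, and the other mesophyll markers went both ways. PEPC_A was lower, with 21.5 TPM in HT_2h and 42.3 TPM in ctrl_2h leaves (edgeR adjusted p = 0.00495). NADP-MDH was lower without a call, with 39.4 against 49.6 TPM (edgeR adjusted p = 0.424). CA_B was higher, with 40.4 against 24.9 TPM (edgeR adjusted p = 0.0253). All listed genes labelled bundle sheath had a summed ratio of 1.01 at 2 h and 1.05 at 4 h (exact permutation p = 0.857 and 0.4). Those labelled mesophyll had 1.06 and 1.02 (exact permutation p = 0.114 and 0.629). In whole-leaf RNA, fewer cells of a type and less RNA per cell cannot be told apart.

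Libraries stood apart in a manner that touches the comparison. Libraries carried one of 2 second index sequences, named AK2941 and AK10751 in the labels. All 8 control libraries carried AK2941, as did HT_2h A and B and HT_4h A, while HT_2h C and D and HT_4h B, C and D carried AK10751. The index moved with a group of 21 gene models whose closest Arabidopsis gene is encoded in the plastid or mitochondrial genome, of which 20 were tested. Their summed share of TPM was 0.222 and 0.238% in HT_2h A and B and 0.817 and 0.824% in HT_2h C and D, against 1.5 to 1.71% in ctrl_2h leaves. At 4 h it was 0.328% in HT_4h A and 0.656 to 0.930% in HT_4h B, C and D, against 0.247 to 0.301% in ctrl_4h leaves. The share was thus high in ctrl_2h and low in ctrl_4h leaves, and all of these libraries carried AK2941. Other AK2941 libraries of the series had 1.44 to 2.21% in ctrl_0h leaves and 1.66 to 1.72% in high light leaves at 2 h. The AK2941 library of high light leaves at 4 h had 0.1945%. Among AK2941 libraries, HT_2h A and B thus lay with those of 4 h and apart from the others of 2 h. What set them apart was not tested. HT_2h A and B lay just below the ctrl_4h libraries, and the other heat libraries lay between the 2 control groups. Within HT_2h and within HT_4h the AK10751 libraries lay above the AK2941 ones, whereas at 1 h the order was reversed, with 0.956 and 0.997% for AK10751 against 1.79 and 1.82% for AK2941 in HT_1h leaves, and with AK10751 also the lower in ctrl_1h leaves. The index term itself, tested within conditions over the libraries of known index, was called for 353 of the 14293 tested genes. The part of the index in the results was not otherwise tested. The results were also fitted with the index as a covariate and with AK2941 libraries alone.

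**Figure D1:**
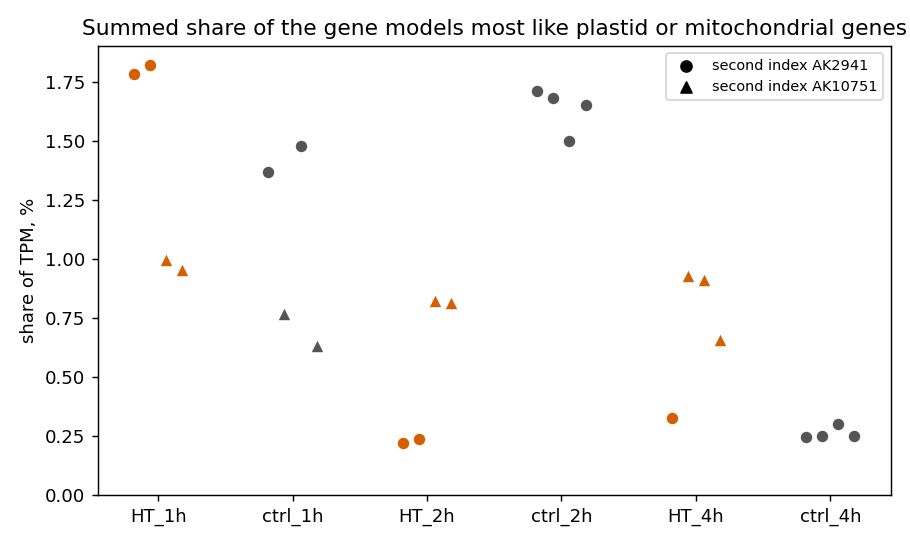
Share of TPM (vertical axis, %) taken by the gene models most like plastid or mitochondrial genes, 1 point per library, HT in orange and ctrl in grey at 1, 2 and 4 h, with circles for second index AK2941 and triangles for AK10751. The ctrl_2h libraries sit at 1.5 to 1.71% and the ctrl_4h libraries at 0.247 to 0.301%, and the AK2941 libraries of HT_2h are the lowest of their group.

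Of the 14293 genes, 499 (3.49%) changed their heat effect between 2 and 4 h at a Benjamini-Hochberg adjusted p under 0.05 in the quasi-likelihood test of edgeR. The effect was higher at 4 h for 288 genes (2.01%) and lower for 211 (1.48%). Leaving out 1 library moved the total by over 1.5 times in 8 of 16 cases, to 773 without HT_2h D, 326 without ctrl_2h C, 314 without HT_4h D, 307 without ctrl_4h D, 306 without ctrl_4h B, 230 without HT_4h B, 211 without HT_2h A and 210 without HT_2h B. With scaling by total counts alone, which moved the median change of all genes to 0.10 on the log2 scale, the split was 274 higher and 123 lower. At 2 h, 769 genes were up-regulated (5.38%) and 768 down-regulated (5.37%) by heat. At 4 h, 603 were up-regulated (4.22%) and 801 down-regulated (5.6%). The total of 1537 genes at 2 h was 984 without HT_2h A and 972 without HT_2h B. That of 1404 at 4 h was 632 with the second index as a covariate, and 820 without ctrl_4h B, 796 without HT_4h D and 671 without HT_4h B.

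Most DEGs were called at a single time point. Of the 769 rises of 2 h, 131 were also called at 4 h, which is 17.04% of the 2 h rises and 21.7% of the 4 h rises. Of the 768 falls of 2 h, 129 were also called at 4 h, which is 16.8% of the 2 h falls and 16.1% of the 4 h falls. A missing call is not a lost response, and the difference itself was called for fewer genes. Among the 638 rises called at 2 h and not at 4 h, 119 (18.7%) had a significantly lower effect at 4 h, and these are called lost rises here. Among the 639 falls called at 2 h alone, 187 (29.3%) had a significantly higher effect at 4 h and are called lost falls. Among the 472 rises called at 4 h alone, 83 (17.58%) exceeded the effect at 2 h and are called late rises. Among the 672 falls called at 4 h alone, 58 (8.63%) lay below the effect at 2 h and are called late falls. A further 7 genes rose at both times with a weaker rise at 4 h, and 69 changed their effect without a call at either time. Leaving out 1 library gave 49 (without HT_2h A) to 185 (without HT_2h D) lost rises, 73 (without HT_2h B) to 277 (without HT_2h D) lost falls, 33 (without HT_4h B) to 135 (without HT_2h D) late rises and 10 (without HT_4h B) to 87 (without HT_2h D) late falls. Of the lost and late genes, 24 belong to both kinds, because their heat effects were called in opposite directions at 2 and 4 h.

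**Figure D2:**
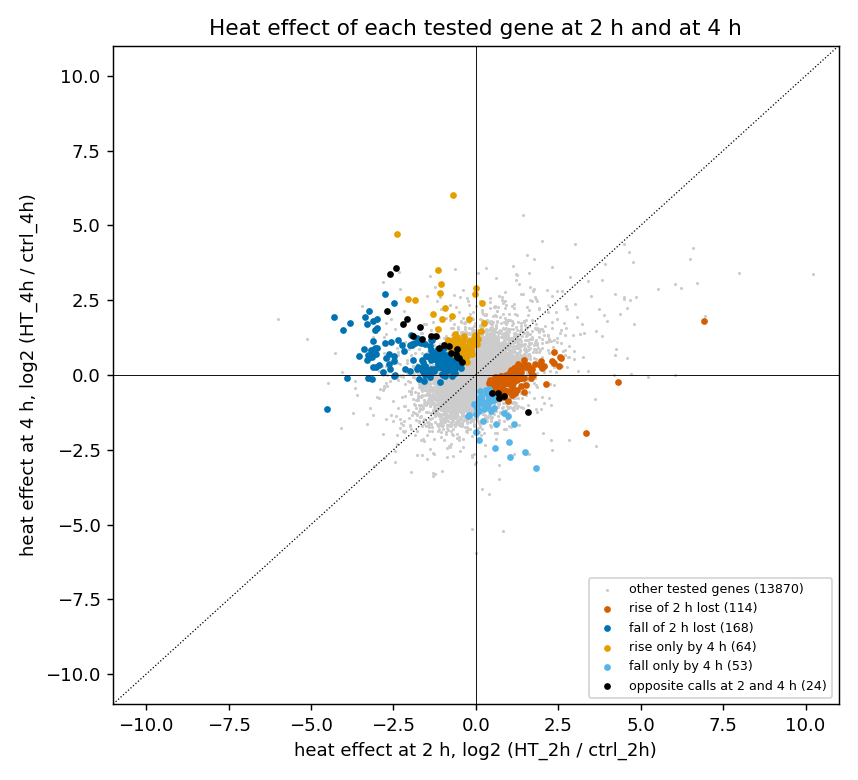
Heat effect of each of the 14293 tested genes at 2 h (horizontal axis, log2 of HT_2h over ctrl_2h) and at 4 h (vertical axis, log2 of HT_4h over ctrl_4h), with the dotted line marking equal effects. Lost rises lie to the right near a 4 h effect of 0, lost falls to the left, and 24 genes with opposite calls lie at the upper left and lower right. The legend counts those 24 apart from the 4 kinds.

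The 4 kinds differed in which leaves moved between 2 and 4 h. For the 119 lost rises, only the HT leaves differed between the times for 75 genes, only the control leaves for 29, both for 9 and neither for 6. For the 187 lost falls, only the control leaves differed for 150 genes and only the HT leaves for 25. Late rises were of the same sort, with only the controls differing for 56 of 83 genes and only the HT leaves for 16. For the 58 late falls, only the HT leaves differed for 32 and only the controls for 20. Over all tested genes, 1918 (13.4%) differed between HT_4h and HT_2h, 6.18% higher and 7.23% lower at 4 h, and 2504 (17.5%) between ctrl_4h and ctrl_2h, 8.47% higher and 9.05% lower. The median of HT_4h over HT_2h was -0.83 on the log2 scale among lost rises, beside 0.37 for ctrl_4h over ctrl_2h. Among lost falls the 2 medians were 0.34 and -1.34. Because the same libraries chose the genes, these counts describe the kinds and test nothing.

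**Figure D3:**
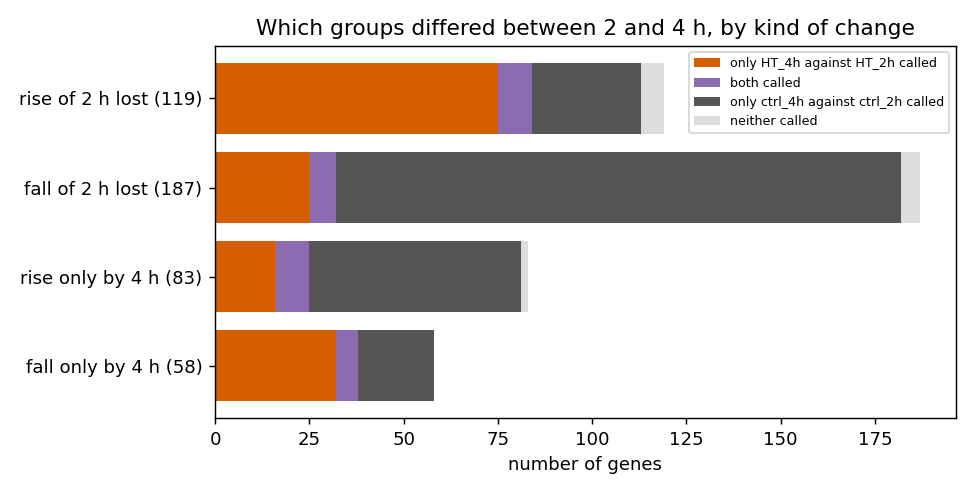
Number of genes (horizontal axis) of each kind of change, split by whether HT_4h differed from HT_2h (orange), ctrl_4h from ctrl_2h (dark grey), both (purple) or neither (light grey) at an adjusted p under 0.05. Orange fills 75 of the 119 lost rises, and dark grey fills 150 of the 187 lost falls.

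The libraries at 1 h were in none of the contrasts that chose the genes. They did enter the same fit, and so the filter, the scaling and the shared estimate of spread behind the calls. Of the 4 count columns of HT_1h, 3 could be tied to that condition but not to a replicate. Of the 119 lost rises, 64 were also up-regulated at 1 h, where 5.07% of all tested genes were. The median effect of the lost rises was 0.71 at 1 h, 1.06 at 2 h and -0.16 at 4 h. Of the 187 lost falls, 7 were down-regulated at 1 h, where 5.41% of all genes were, and their medians were 0.02, -1.36 and 0.50. Only 2 of the 83 late rises were up-regulated at 1 h, and 2 of the 58 late falls were down-regulated. More than 1 in 2 lost rises were thus called from 1 h, while the share of lost falls called at 1 h was near that of all genes.

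**Figure D4:**
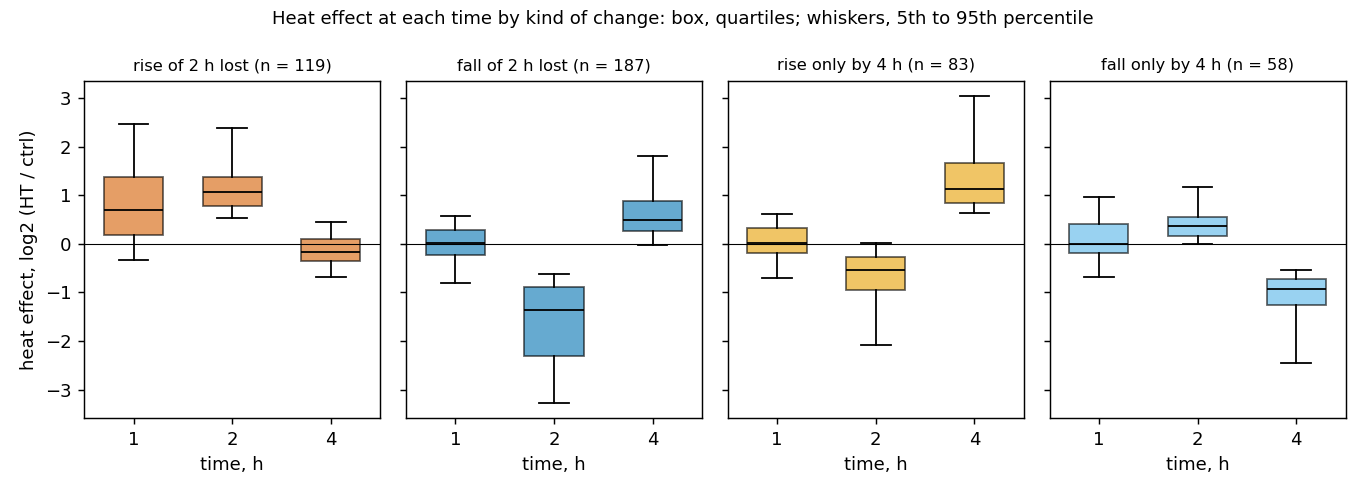
Heat effect (vertical axis, log2 of HT over ctrl) at 1, 2 and 4 h (horizontal axis) for the genes of each kind, with boxes for quartiles, a line for the median and whiskers for the 5th and 95th percentiles over genes. Lost rises have a median of 0.71 at 1 h and 1.06 at 2 h, whereas the medians of the other 3 kinds lie at 0.02, 0.01 and -0.00 at 1 h.

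Chaperones were among the rises that were lost. For comparison with the list counts below, 5.38% of all tested genes were up-regulated at 2 h and 4.22% at 4 h. The shares down-regulated were 5.37% and 5.6%, and 1.48% changed to a lower effect. Of 29 tested small HSPs, 19 were up-regulated at 2 h and 8 at 4 h, none was down-regulated at either time, and 5 changed to a lower effect. Their median effect was 2.51 at 2 h and 0.79 at 4 h on the log2 scale, with a median change of -1.75, where the median change of all tested genes was -0.02. The summed TPM of the small HSPs was 1551 ± 163 in HT_2h and 482 ± 44.0 in ctrl_2h leaves, and 841 ± 76.9 in HT_4h and 615 ± 59.7 in ctrl_4h leaves (SD, n = 4 each). The HT leaves were 3.22 times the controls at 2 h and 1.37 times at 4 h (exact permutation test, p = 0.02857 at each time, the smallest possible). With the second index as a covariate, the median effects were 1.46 at 2 h and 0.62 at 4 h. The median change of the list was then -1.19, with 5 members called. It was -0.97 with AK2941 libraries alone, where HT_4h is 1 library. With the organelle-like level as a covariate it was -0.52, with 0 members called.

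HSP17.6C (Sevir.9G461800), a cytosolic small HSP, had 690.2, 745, 471 and 443 TPM in HT_2h leaves, against 134, 83.5, 94.3 and 121 TPM in ctrl_2h leaves. It had 232, 226, 262 and 229 TPM in HT_4h leaves, against 225, 188, 130.4 and 191 TPM in ctrl_4h leaves. All HT leaves exceeded their controls at both times, with a gap of under 2 TPM at 4 h, and HT leaves were 5.69-fold higher at 2 h and 1.22-fold at 4 h. No overlap in either direction was seen for 15.5% of all tested genes at 2 h and 17.3% at 4 h. The change was -2.22 ± 0.37 (log2, SE, adjusted p = 0.000976), and it was called again in each of the 16 fits that left out 1 library. The second index as a covariate gave -2.20.

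The FK506-binding protein ROF1 is a peptidyl-prolyl isomerase that binds HSP90 in Arabidopsis. Its copy Sevir.7G066700 had the largest change of the lost rises described here. It had 64.5, 64.7, 36.4 and 35.4 TPM in HT_2h leaves, against 0, 0.259, 1.157 and 0.283 TPM in ctrl_2h leaves. By 4 h it was near the background, with 0.641, 1.202, 1.81 and 2.33 TPM in HT_4h leaves, against 0.45, 0.967, 0 and 0 TPM in ctrl_4h leaves. The change was -5.11 ± 1.43 (adjusted p = 0.0376), between -6.14 and -4.07 when each library was left out, and the call was lost without any 1 of 8 libraries, ctrl_2h A, B and D, HT_2h A and B, ctrl_4h A and B and HT_4h B.

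A second copy, Sevir.6G226300, was measured at higher levels. It had 202, 199.6, 151 and 187 TPM in HT_2h leaves, against 66.6, 61.5, 35.3 and 68.2 TPM in ctrl_2h leaves. At 4 h the groups overlapped, with 84.8, 60.7, 84.8 and 73.0 TPM in HT_4h leaves, against 69.2, 72.7, 41.3 and 65.1 TPM in ctrl_4h leaves. Its change was -1.51 ± 0.32 (adjusted p = 0.00671). ROF2 (Sevir.1G164400), of the same family, rose at both times and its effect was lower at 4 h by -1.09 ± 0.26 (adjusted p = 0.0139). Reads of near-identical copies could be split between them by the mapping, so that levels of single copies are less certain than those of the family.

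Large HSPs had a median effect of 0.10 at 2 h and 0.16 at 4 h. Of 59 tested, 16 were up-regulated at 2 h and 9 at 4 h. At these times 1 and 4 were down-regulated, where 5.37% and 5.6% of all tested genes were. The effect was lower at 4 h for 8 of the large HSPs and higher for none. Their summed TPM was 1.39 times as high in HT_2h as in ctrl_2h leaves (exact permutation p = 0.02857) and 0.972 times as high in HT_4h as in ctrl_4h leaves (p = 0.714). HSP90.5 (Sevir.2G252000), the HSP90 of the chloroplast, had 204, 157, 157 and 229 TPM in HT_2h leaves, against 38.3, 43.8, 24.3 and 39.9 TPM in ctrl_2h leaves. It had 33.5, 36.7, 70.3 and 36.3 TPM in HT_4h leaves, against 41.6, 33.8, 25.3 and 25.6 TPM in ctrl_4h leaves. The 2 h groups were apart by 5.19-fold and the 4 h groups overlapped, with HT_4h C the highest. The change was -1.99 ± 0.35 (adjusted p = 0.00123).

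HSC70-7 (Sevir.3G256300), a chloroplast HSP70, behaved alike. It had 493, 444, 352 and 456 TPM in HT_2h leaves, against 132, 115, 76.4 and 123 TPM in ctrl_2h leaves. It had 127, 125, 176 and 149 TPM in HT_4h leaves, against 105, 148, 92.0 and 108 TPM in ctrl_4h leaves. A 4.02-fold rise at 2 h was thus followed by overlapping groups at 4 h, and the change was -1.77 ± 0.28 (adjusted p = 0.00059). For HSP90.5 and HSC70-7 the call held in all 16 fits with 1 library left out. With the second index as a covariate the changes were -1.95 and -1.72 (adjusted p = 0.00145 and 0.000956). HSP81.4 (Sevir.6G207201), a cytosolic HSP90, changed by -1.55 ± 0.42 (adjusted p = 0.031), a call that held in 6 of the 16 fits, where the change lay between -1.71 and -1.32.

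Chaperonins of the chloroplast differed among themselves. Cpn60-Beta2_A (Sevir.4G010900) had 144, 145, 160.4 and 221 TPM in HT_2h leaves, against 20.04, 25.2, 15.3 and 25.5 TPM in ctrl_2h leaves. It had 79.9, 67.3, 114 and 82.6 TPM in HT_4h leaves, against 46.7, 59.5, 42.3 and 36.5 TPM in ctrl_4h leaves. Heat raised it 7.85-fold at 2 h and 1.73-fold at 4 h, both called, so that the rise weakened but was not lost (change -2.18 ± 0.33, adjusted p = 0.000573). The co-chaperonin CPN20 (Sevir.4G037800) also rose at both times, 7.11-fold at 2 h and 1.94-fold at 4 h, with a change of -1.88 ± 0.34 (adjusted p = 0.00198).

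Cpn60-Alpha1 (Sevir.3G292100) changed through its controls. It had 42.3, 33.9, 57.1 and 52.5 TPM in HT_2h leaves, against 8.01, 14.01, 13.9 and 9.62 TPM in ctrl_2h leaves. It had 76.0, 81.5, 113 and 81.6 TPM in HT_4h leaves, against 79.1, 71.1, 66.6 and 50.5 TPM in ctrl_4h leaves. The HT leaves did not fall, and the controls were higher by 2.54 on the log2 scale at 4 h (adjusted p = 8.73e-08), giving a change of -1.76 ± 0.41 (adjusted p = 0.0116). Cpn60-Beta4 (Sevir.7G118300) went the other way. It had 24.7, 22.04, 29.6 and 37.3 TPM in HT_2h leaves, against 52.6, 68.2, 68.8 and 53.5 TPM in ctrl_2h leaves, and its 2.12-fold fall at 2 h was lost by 4 h (change 1.49 ± 0.34, adjusted p = 0.00994).

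Co-chaperones and thermotolerance factors, a list drawn from gene descriptions, had 17 of 29 members up-regulated at 2 h and 8 at 4 h, with 9 lower in effect at 4 h and a median change of -0.74. Of 13 folding factors of the endoplasmic reticulum, 9 were up-regulated at 2 h and 7 at 4 h, with medians of 1.63 and 0.94, and 1 had a lower effect at 4 h. With the second index as a covariate, 9 were up-regulated at 2 h and 0 at 4 h, with medians of 1.45 and 0.83, and 2 had a lower effect at 4 h. The gene called without the covariate was calreticulin CRT1a (Sevir.3G188000), a calcium-binding chaperone, which rose 5.01-fold at 2 h and 1.91-fold at 4 h (change -1.39 ± 0.39, adjusted p = 0.0379). Its call held in 3 of the 16 fits with 1 library left out, where the change lay between -1.63 and -1.19.

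Some early rises were still called at 4 h, without a call for the change. HSP21 (Sevir.6G132300), a chloroplast small HSP, had 21.1, 57.5, 29.6 and 54.7 TPM in HT_2h leaves, against 0 in all ctrl_2h libraries. It had 1.92, 3.61, 3.62 and 3.00 TPM in HT_4h leaves, against 0.674, 0, 0 and 0.228 TPM in ctrl_4h leaves. It was at least 50.2-fold higher at 2 h and at least 4.24-fold higher at 4 h, counting 3 reads per library as the floor. Its fitted change of -6.85 ± 2.23 was the lowest of all tested genes and missed the threshold (adjusted p = 0.0809), with values between -7.20 and -5.65 when each library was left out. A further HSP17.6C copy (Sevir.9G462200) had 32.8, 43.5, 35.2 and 23.2 TPM in HT_2h leaves, against 0.501, 0.519, 0.289 and 0 TPM in ctrl_2h leaves. It still had 14.3, 10.8, 26.9 and 23.0 TPM in HT_4h leaves, against 1.35, 0.242, 0.784 and 1.14 TPM in ctrl_4h leaves. Both times were called, and the change of -2.34 ± 1.29 was not (adjusted p = 0.335).

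HSP70.4 (Sevir.3G222000), a cytosolic HSP70, had 300.0, 209, 130.2 and 112 TPM in HT_2h leaves, against 10.8, 10.1, 6.36 and 7.64 TPM in ctrl_2h leaves. It had 21.1, 25.2, 20.8 and 29.6 TPM in HT_4h leaves, against 5.39, 2.90, 4.44 and 2.06 TPM in ctrl_4h leaves. The rise was 22.7-fold at 2 h and 6.11-fold at 4 h, and the change of -1.89 ± 0.88 was not called (adjusted p = 0.24). RCA1 (Sevir.8G261466), a form of Rubisco activase, the chaperone that clears inhibitors from Rubisco, had 11.7, 8.16, 11.8 and 11.9 TPM in HT_2h leaves, against 0, 0.259, 0.289 and 0 TPM in ctrl_2h leaves. It had 0.427, 1.202, 2.113 and 1.67 TPM in HT_4h leaves, against 0.45, 0, 0 and 0 TPM in ctrl_4h leaves. By group means and the floor of 3 reads, it was at least 13.4-fold higher at 2 h and at least 1.89-fold higher at 4 h. The groups overlapped at 4 h, where HT_4h A lay below ctrl_4h A and values were near that floor. The change of RCA1, -3.02 ± 1.77, was not called (adjusted p = 0.366). A change that missed the threshold does not show that the rise was kept at its full size.

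Among 10 tested HSFs, 3 were up-regulated at 2 h, and 1 was up-regulated and 1 down-regulated at 4 h. None changed its effect by edgeR, 3 had an unadjusted p under 0.05, DESeq2 called 1 and limma 0. HSFB2C (Sevir.2G292500), a class B factor, was up-regulated at both times, by 1.03 at 2 h and 1.04 at 4 h on the log2 scale, with a change of 0.01 ± 0.31 (adjusted p = 0.99).

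Of 11 tested aquaporins, the water channels of cell membranes, 7 were up-regulated at 2 h and 1 at 4 h, and 3 were lost rises. The 3 were plasma membrane channels of the PIP2 type. Sevir.2G128000, the one of these 3 with most reads, had 455, 505, 559.6 and 573 TPM in HT_2h leaves, against 194, 180.2, 193 and 204 TPM in ctrl_2h leaves. It had 258, 289, 277 and 269 TPM in HT_4h leaves, against 212, 154, 164 and 188 TPM in ctrl_4h leaves. The groups did not overlap at either time, where 15.5% of all tested genes had no overlap at 2 h and 17.3% at 4 h. The rise of this gene was 2.78-fold at 2 h and 1.43-fold at 4 h (adjusted p = 0.0819 at 4 h). Its change of -0.96 ± 0.27 (adjusted p = 0.04) held in 3 of the 16 fits with 1 library left out, between -1.02 and -0.85.

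Sevir.7G179900 had 37.7, 30.6, 35.8 and 30.9 TPM in HT_2h leaves, against 4.76, 5.97, 8.10 and 9.62 TPM in ctrl_2h leaves. It had 11.1, 6.91, 12.1 and 8.66 TPM in HT_4h leaves, against 9.89, 5.56, 7.05 and 4.34 TPM in ctrl_4h leaves. Its 4.96-fold rise was lost, with a change of -1.86 ± 0.38 (adjusted p = 0.00508). Sevir.2G128300 had 18.29, 13.1, 14.8 and 12.2 TPM in HT_2h leaves, against 1.00, 1.04, 0.289 and 0.566 TPM in ctrl_2h leaves, and changed by -4.55 ± 1.02 (adjusted p = 0.0097). Without ctrl_4h A, whose 5.17 TPM was the highest of its group, the change was -3.80 and was not called (adjusted p = 0.0641). The summed TPM of all aquaporins was 2.36 times as high in HT_2h as in ctrl_2h leaves and 2.15 times as high in HT_4h as in ctrl_4h leaves (exact permutation p = 0.02857 each). In HT leaves that sum was 2423 TPM at 2 h and 2440 TPM at 4 h, so that the summed level was not lost with these rises.

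In the redox lists most genes had no called change. The effect was lower at 4 h for 2 of 30 glutathione transferases, 2 of 22 thioredoxins, 1 of 7 superoxide dismutases and 1 of 7 ascorbate peroxidases, where 1.48% of all genes were lower. By edgeR 0 of 31 peroxidases, 8 peroxiredoxins and 10 monodehydroascorbate reductases changed, with an unadjusted p under 0.05 for 2, 1 and 2 of them, and DESeq2 and limma called 0. GSTF13 (Sevir.5G332100), a glutathione transferase, had 1648, 1771, 1283 and 1152 TPM in HT_2h leaves, against 557, 417, 446 and 563 TPM in ctrl_2h leaves. It had 772, 691, 718 and 702 TPM in HT_4h leaves, against 519, 576, 530.3 and 699 TPM in ctrl_4h leaves. The rise was 3.09-fold at 2 h and 1.157-fold at 4 h, and the change was -1.42 ± 0.31 (adjusted p = 0.00855). The cytosolic superoxide dismutase CSD1 (Sevir.9G407100) had 334, 332, 281 and 337 TPM in HT_2h leaves, against 133, 114, 139 and 126 TPM in ctrl_2h leaves. It had 183, 186, 172 and 180.2 TPM in HT_4h leaves, against 160.5, 164, 134 and 176 TPM in ctrl_4h leaves, a change of -1.28 ± 0.24 (adjusted p = 0.00253).

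APX2 (Sevir.2G456100), an ascorbate peroxidase, and the thioredoxin TRX1 (Sevir.2G065100) were lost rises too, with changes of -1.06 ± 0.24 and -1.41 ± 0.36 (adjusted p = 0.0097 and 0.022). The call of TRX1 was lost without HT_2h A, HT_2h B, HT_4h B or HT_4h D, with changes between -1.62 and -1.15 over the 16 fits. DHAR3 (Sevir.3G061500), which recycles ascorbate, rose 3.40-fold at 2 h and 1.84-fold at 4 h. Its change was -0.88 ± 0.21 (adjusted p = 0.0158), or -0.75 and not called without HT_2h B. GAPC2 (Sevir.1G225700), a cytosolic enzyme of glycolysis, had 45.6, 61.6, 32.3 and 118 TPM in HT_2h leaves, against 15.3, 14.01, 13.0 and 14.4 TPM in ctrl_2h leaves. It had 10.2, 6.01, 9.35 and 8.66 TPM in HT_4h leaves, against 14.4, 8.94, 6.53 and 10.7 TPM in ctrl_4h leaves. Heat raised it 4.41-fold at 2 h and the groups overlapped at 4 h, and the change was -2.46 ± 0.39 (adjusted p = 0.00059).

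In the photosynthesis lists, the change was called for 5 of 32 genes of the NDH complex, 4 of 41 of PSII assembly and repair, 1 of 9 of LHCII, 1 of 21 of photosystem I and 1 of 29 of the Calvin-Benson cycle, where 3.49% of all tested genes were called. None of 9 tested PSII core genes, 12 of cytochrome b6f, 4 of ATP synthase, 16 of C4 carbon metabolism and 22 of photorespiration changed by edgeR. An unadjusted p under 0.05 was seen for 1 PSII core gene, 1 of cytochrome b6f, 4 of C4 metabolism, 4 of photorespiration and 0 of ATP synthase, and of these 5 lists DESeq2 called 1 photorespiration gene and limma 0. In the NDH complex, which carries electrons around photosystem I, 2 genes had a higher and 3 a lower effect at 4 h. NdhT (Sevir.8G098400) had 315, 322, 259.5 and 317 TPM in HT_2h leaves, against 157, 128, 129.6 and 133 TPM in ctrl_2h leaves. It had 104, 112, 129 and 146 TPM in HT_4h leaves, against 119.8, 100.1, 95.1 and 116 TPM in ctrl_4h leaves, so that the rise was lost (change -1.11 ± 0.26, adjusted p = 0.0131). HCF173_A (Sevir.1G091500), needed for translation of the D1 protein of PSII, changed by -0.92 ± 0.22 (adjusted p = 0.0162), with the call lost without ctrl_2h C, HT_2h A or HT_4h B (changes between -0.98 and -0.76 over the 16 fits).

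The 187 lost falls held a different set of genes. Of these, 26 were models of organelle type, that is with an organelle gene as the closest match or a model number beside such a model, where 47 of all 14293 tested genes were. For the 20 tested models with an organelle gene as the closest match, 18 were down-regulated at 2 h, 5 were up-regulated at 4 h and 14 had a higher effect at 4 h. The summed TPM of all 21 such models, tested or not, was 0.321 times as high in HT_2h as in ctrl_2h leaves. At 4 h it was 2.69 times as high in HT_4h as in ctrl_4h leaves (exact permutation p = 0.02857 each). Sevir.1G145588, described as cytochrome oxidase, the last enzyme of mitochondrial respiration, had 145, 201, 384 and 431 TPM in HT_2h leaves, against 2447, 2261, 2053 and 2674 TPM in ctrl_2h leaves. It had 211, 416, 479.9 and 291 TPM in HT_4h leaves, against 194, 169.5, 228 and 207 TPM in ctrl_4h leaves. The controls fell by 3.56 on the log2 scale between the times, where the HT leaves differed by 0.16 (adjusted p = 0.898), and the change was 3.71 ± 0.78 (adjusted p = 0.00608).

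Lost falls were chosen in the same libraries for values that are high in ctrl_2h and low in HT_2h leaves, which is also the pattern of the organelle-like sum, and 12 of the 187 are members of that sum, so that their correlation with it is a description that the choice itself favours. Across the 40 libraries of the series, the median correlation of a lost fall with the summed level of the 21 organelle-like models was 0.725, and 143 of the 187 had a correlation over 0.5. The medians were 0.460 for late rises, -0.202 for lost rises, -0.272 for late falls and -0.0743 for all tested genes. These are descriptions over libraries that share conditions. With the summed level as a covariate, a choice made after seeing the data, 1 gene changed its heat effect at an adjusted p under 0.05. It was Cpn60-Beta2_A, with a change of -2.60. An unadjusted p under 0.05 was seen for 485 genes, where it was seen for 2626 without this covariate. The median standard error was 1.41 times as large, and the part of the organelle-like level in the results was not otherwise tested. The median change of lost falls was then 0.38 and that of lost rises -0.59, with 147 of 187 and 116 of 119 keeping their sign.

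Within AK2941 libraries alone, where HT_4h is 1 library that is assumed to vary like the other groups, all 185 lost falls and all 117 lost rises that could be fitted kept their sign, with medians of 1.95 and -1.20. Of these, 100 lost falls and 28 lost rises were called. In those libraries 4 genes were called for the heat effect at 4 h, and 0 genes met the definition of a late rise or late fall, although 33 of 81 fitted late rises and 12 of 57 fitted late falls were called for the change and all kept their sign. With the second index as a covariate, 182 of 186 fitted lost falls and 107 of 119 lost rises were called. The index term itself was called for 5 of the 187 lost falls and 1 of the 119 lost rises. It was called for 1 of the 83 late rises and 5 of the 58 late falls, where 353 of all 14293 tested genes were. Both settings reuse libraries that chose the genes, so that kept signs, sizes and calls describe the kinds and test nothing. Within AK2941 the organelle-like share was 1.5 to 1.71% in ctrl_2h leaves and 0.222 to 0.328% in the HT_2h and HT_4h libraries. Neither setting therefore separates that share from the groups.

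Enzymes of starch breakdown were among the lost falls. SEX1 (Sevir.4G161000), the glucan water dikinase that opens starch to degradation, had 3.30, 3.88, 9.47 and 10.3 TPM in HT_2h leaves, against 29.1, 34.2, 36.2 and 43.9 TPM in ctrl_2h leaves. It had 12.4, 20.4, 31.7 and 19.7 TPM in HT_4h leaves, against 20.7, 20.5, 20.4 and 16.4 TPM in ctrl_4h leaves. Heat lowered it 5.44-fold at 2 h and the groups overlapped at 4 h, a change of 2.43 ± 0.55 (adjusted p = 0.0106). PHS2 (Sevir.5G389400), a cytosolic glucan phosphorylase, had 3.97, 1.22, 3.85 and 12.6 TPM in HT_2h leaves, against 25.3, 20.2, 35.0 and 32.8 TPM in ctrl_2h leaves. It had 25.2, 59.2, 42.8 and 57.3 TPM in HT_4h leaves, against 75.1, 33.6, 35.5 and 32.7 TPM in ctrl_4h leaves. The HT leaves rose between the times, by 3.07 on the log2 scale (adjusted p = 4.9e-06), and the change was 2.45 ± 0.59 (adjusted p = 0.0154), or 2.08 and not called without HT_2h B. Of 20 starch degradation genes tested, these were the 2 that changed, where 3.49% of all tested genes did.

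SnRK1α1 (Sevir.3G173000), a catalytic subunit of the kinase that senses low energy, had 3.30, 2.65, 6.51 and 8.69 TPM in HT_2h leaves, against 11.8, 9.60, 13.3 and 11.9 TPM in ctrl_2h leaves. It had 6.41, 9.32, 6.94 and 9.33 TPM in HT_4h leaves, against 6.74, 4.35, 4.44 and 2.74 TPM in ctrl_4h leaves. The fall of 2 h turned into higher values with overlap at 4 h, a change of 1.88 ± 0.37 (adjusted p = 0.00332). The regulatory subunit SnRK1β3 (Sevir.9G428200) changed by 1.12 ± 0.27 (adjusted p = 0.0154), and the other 8 of 10 genes in the list were not called. For SEX1 and SnRK1α1 the AK2941 pair of HT_2h lay below the AK10751 pair, and both pairs lay below all ctrl_2h libraries.

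Among late rises, Sevir.3G194200, a protein with a domain of unknown function (DUF1995), had 11.5, 25.8, 20.8 and 20.7 TPM in HT_4h leaves, against 2.92, 2.90, 3.40 and 4.34 TPM in ctrl_4h leaves. At 2 h the groups overlapped, with 5.95, 7.75, 8.58 and 9.65 TPM in HT_2h leaves, against 6.51, 5.97, 7.52 and 8.49 TPM in ctrl_2h leaves. It rose 5.32-fold at 4 h, with both HT leaves higher and control leaves lower than at 2 h, and changed by 2.22 ± 0.43 (adjusted p = 0.00332). FP3 (Sevir.7G081900), a farnesylated protein, had 27.8, 33.97, 35.0 and 43.6 TPM in HT_4h leaves, against 6.97, 8.94, 10.4 and 9.36 TPM in ctrl_4h leaves. At 2 h it had 14.5, 26.1, 32.8 and 35.1 TPM in HT_2h leaves, against 29.3, 25.7, 39.3 and 32.8 TPM in ctrl_2h leaves. Here the control leaves fell while the HT leaves differed by 0.25 on the log2 scale (adjusted p = 0.694), and the change was 2.07 ± 0.49 (adjusted p = 0.0133).

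A cyclophilin-like protein (Sevir.2G365900), of a family that helps proteins fold, was a late rise of 6.68-fold. It had 5.12, 17.7, 12.1 and 23.0 TPM in HT_4h leaves, against 3.37, 0.725, 2.35 and 1.37 TPM in ctrl_4h leaves, and 2.83, 2.24, 3.85 and 12.2 TPM in HT_2h leaves, against 7.76, 12.2, 13.0 and 9.62 TPM in ctrl_2h leaves. Its change was 3.84 ± 0.74 (adjusted p = 0.00294). In the chloroplast, THF1 (Sevir.2G362500), a factor of PSII maintenance, and PnsB3 (Sevir.2G329200), an NDH subunit, were late rises of 1.55-fold and 1.61-fold. Their changes were 1.06 ± 0.29 and 1.03 ± 0.28 (adjusted p = 0.0323 and 0.0303), and the calls held in 8 and 7 of the 16 fits with 1 library left out, where the changes lay between 0.96 and 1.22 and between 0.89 and 1.28. The ubiquitin ligase KEG (Sevir.3G261500) changed by 1.69 ± 0.38 (adjusted p = 0.0106).

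Late falls included a kinase and folding genes. CRK (Sevir.2G403700), a kinase related to calcium-dependent protein kinases, had 9.82, 14.7, 11.5 and 9.99 TPM in HT_4h leaves, against 40.5, 24.7, 24.04 and 23.1 TPM in ctrl_4h leaves. It had 3.30, 7.35, 3.85 and 6.44 TPM in HT_2h leaves, against 2.505, 2.85, 3.47 and 1.98 TPM in ctrl_2h leaves. Both groups were higher at 4 h, the controls by 3.34 and the HT leaves by 1.00 on the log2 scale, which gave a change of -2.34 ± 0.50 (adjusted p = 0.0071). PDI6 (Sevir.8G068800), a protein disulfide isomerase in the list of PSII assembly and repair, had 52.7, 63.1, 62.1 and 64.0 TPM in HT_4h leaves, against 131, 113, 95.6 and 132 TPM in ctrl_4h leaves. It too rose less in HT leaves, with 23.4, 21.0, 28.7 and 24.1 TPM in HT_2h leaves, against 12.3, 17.64, 22.8 and 27.2 TPM in ctrl_2h leaves. Its change of -1.40 ± 0.39 (adjusted p = 0.0357) held in 4 of the 16 fits, between -1.55 and -1.18.

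VTC5 (Sevir.7G289500), an enzyme of ascorbate synthesis, had 1028, 742, 1045 and 950.4 TPM in HT_4h leaves, against 1576, 2011, 1215 and 1467 TPM in ctrl_4h leaves. It had 3898, 2686, 2340 and 2491 TPM in HT_2h leaves, against 3337, 1703, 1342 and 1728 TPM in ctrl_2h leaves. The HT leaves fell by 1.77 on the log2 scale between the times, and the change was -1.39 ± 0.38 (adjusted p = 0.0319). Sevir.3G338300, an HSP70 that heat did not raise at 2 h, had 1333, 839, 1142 and 813 TPM in HT_4h leaves, against 1923, 2504, 1352 and 1996 TPM in ctrl_4h leaves, and changed by -1.24 ± 0.35 (adjusted p = 0.0401). The calls of VTC5 and of this HSP70 held in 7 and 6 of the 16 fits, with changes between -1.70 and -1.10 and between -1.43 and -0.95.

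The heat effect of 24 genes was called in opposite directions at the 2 times. Only the control leaves differed between the times for 17 of them, only the HT leaves for 1, and both for 6. Of the 24, 4 were of organelle type, where 47 of all 14293 tested genes were. A cyclophilin-like protein of high level (Sevir.1G111000) had 3193, 3163, 2663 and 2307 TPM in HT_2h leaves, against 2072, 1720, 1811 and 1724 TPM in ctrl_2h leaves. It had 2373, 1980, 2470 and 2444 TPM in HT_4h leaves, against 4538, 3523, 3198 and 3439 TPM in ctrl_4h leaves. The groups did not overlap at either time, where 15.5% of all tested genes had no overlap at 2 h and 17.3% at 4 h. The rise was 1.61-fold at 2 h and the fall 1.69-fold at 4 h, and the change was -1.44 ± 0.31 (adjusted p = 0.00671). GSL12 (Sevir.9G560600), a callose synthase, did the reverse. It had 16.5, 23.3, 24.6 and 51.2 TPM in HT_2h leaves, against 33.1, 50.6, 61.3 and 53.2 TPM in ctrl_2h leaves, and 67.7, 94.4, 77.2 and 87.9 TPM in HT_4h leaves, against 37.1, 37.0, 42.8 and 39.0 TPM in ctrl_4h leaves. Its change was 1.77 ± 0.37 (adjusted p = 0.00552). The model most like psbK of PSII (Sevir.1G210150) is 1 of the organelle-like group and had 1915, 2001, 7352 and 6849 TPM in HT_2h leaves, where the AK2941 pair was the lower, against 12730, 12303, 10493 and 11452 TPM in ctrl_2h leaves. It had 2752, 7830, 7630 and 5550 TPM in HT_4h leaves, where the AK2941 library was again the lowest, against 1955, 2125, 2571 and 2172 TPM in ctrl_4h leaves, a change of 2.68 ± 0.46 (adjusted p = 0.00118).

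**Figure D5:**
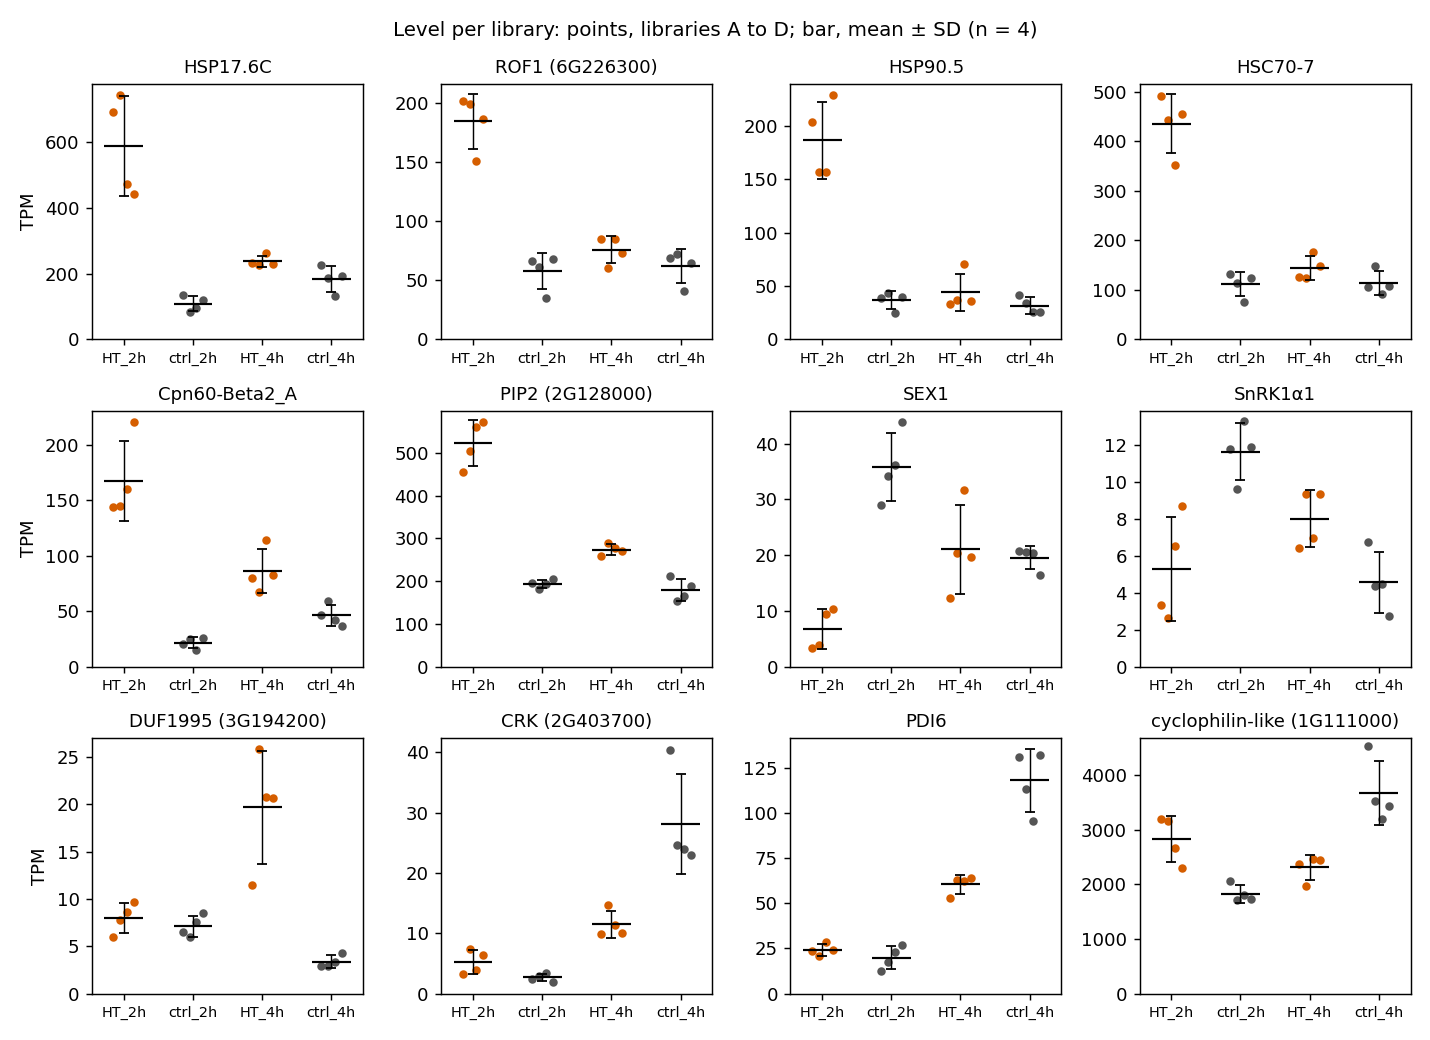
TPM (vertical axis, from 0) of 12 genes in the 4 libraries of HT_2h, ctrl_2h, HT_4h and ctrl_4h (horizontal axis), with points for libraries and bars for the mean ± SD (n = 4). The chaperones and the PIP2 channel are highest in HT_2h leaves, SEX1 and SnRK1α1 are low there, Sevir.3G194200 is highest in HT_4h leaves, and CRK, PDI6 and Sevir.1G111000 are highest in ctrl_4h leaves.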

How the data were processed

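Leaf RNA of the 40 libraries was sequenced by a 3′ method. Per the labels, the authors trimmed reads with Trim Galore 0.6.2 and quantified transcripts with Salmon 1.1.0. The Salmon index was built from the Sviridis_311_v2 transcript and genome sequences. They deposited raw counts per gene in a joint file and TPM in a file per library. The deposited TPM values have no length term, being each gene's share of all counts on a fixed scale, so that levels were not compared between genes by length. Reads of near-identical copies can be split by the quantification. The TPM values were used for levels and the counts for tests. Of the count columns, 1 was not used, because its heading and values belonged to different libraries.

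The test kept genes that reached 10 counts in 4 or more libraries. It was run in edgeR 4.0.16 (R 4.3.3), as the quasi-likelihood fit of the 39 remaining columns with 1 term per condition and TMM scaling, with Benjamini-Hochberg adjustment over all tested genes and 0.05 as the threshold for a call. Single values of 4 against 4 libraries were compared with two-sided exact permutation tests over 70 splits. Replicates were pools of 2 segments from 2 plants, and p-values measure the spread between these samples. Genes were named as the largest described, non-overlapping changes of each kind at a mean of at least 10 TPM, as called members of the gene lists, and as members of the heat shock lists. Members, lists and this rule were chosen with earlier results of these data known, and several lists are those the study displayed for these samples. A keyword list for the clock matched unrelated genes and was set aside. On simulated data with the same design, 19 of 100 genes with 2-fold and 76 of 100 with 4-fold changes were recovered among 13829 genes, with 8 false calls. Alternatives were other scalings, no filter, a 2-fold minimum, DESeq2 1.42.0, limma 3.58.1 on log2(TPM + 1) and log2(TPM + 0.1), the 16 libraries alone, the second index, a replicate block and each library left out.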

Additional observations from a re-analysis of the deposited data

Results flagged for a closer look

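The heat effect differed between 2 and 4 h for 499 genes by edgeR's test of the difference itself, and 24 genes were called in opposite directions at the 2 times. Of 196 groups of 4 libraries tested over the described genes and summed levels, 15 had 1 library whose gap to the nearest other exceeded Dixon's critical value, where chance gives about 1 in 20 groups.

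In HT_2h leaves, the value far from the others was 750.0 TPM for DHAR3 and 8.16 TPM for RCA1 in replicate B, 281 TPM for CSD1 and 259.5 TPM for NdhT in replicate C, and 12.2 TPM for the late-rising cyclophilin-like Sevir.2G365900 in replicate D. In ctrl_2h leaves it was 157 TPM for NdhT in replicate A and 36.7 TPM for YCF4, an assembly factor of photosystem I, in replicate C. In HT_4h leaves it was 52.7 TPM for PDI6 in replicate A, and 70.3 TPM for HSP90.5 and 113 TPM for Cpn60-Alpha1 in replicate C. In ctrl_4h leaves it was 75.1 TPM for PHS2, 40.5 TPM for CRK and 0.45 TPM for RCA1 in replicate A, 16.4 TPM for SEX1 in replicate D, and 3013 TPM for the summed organelle-like models in replicate C.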

How the results depend on the processing

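Scalings, the filter and the test left the total of 499 changed genes within 1.5 times, while the libraries in the fit and the organelle-like level did not. Fitting the 16 libraries alone called 963 genes for the change, 533 higher and 430 lower, with 234 lost rises, 346 lost falls, 196 late rises and 162 late falls. Total-count scaling gave 123 lower changes, 71 lost rises and 35 late falls. limma gave 121 lower changes, 68 lost rises and 31 late falls on log2(TPM + 1), and 108, 60 and 26 on log2(TPM + 0.1). DESeq2 gave 129 late rises and 92 late falls. The cause of these moves was not tested.

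The second index as a covariate gave 632 genes for heat at 4 h, 52 late rises and 35 late falls. AK2941 libraries alone gave 211 genes for the change, 159 higher and 52 lower, 43 lost rises, 0 late rises, 0 late falls, 4 genes for heat at 4 h and 513 between HT_4h and HT_2h, and AK10751 libraries alone gave 324 for the last. The median standard error was 1.31 times that of the reported fit with AK2941 libraries alone, but 0.905 times with the 16 libraries alone. The organelle-like level as a covariate, chosen after seeing the data, gave 1 gene for the change, 0 higher and 1 lower, 1 lost rise, 0 lost falls, 0 late rises, 0 late falls, 174 genes for heat at 2 h, 467 for heat at 4 h and 379 between the controls. Under it the change turned sign for Sevir.1G145588 (-0.034), Sevir.1G145596 (-0.18), HSP70.4 (0.18), SEX1 (-0.011), HSP17.6C Sevir.5G091200 (0.21), HSFA4A (-0.39), RbcX (0.077), YCF4 (-1.67) and Deg5 (-0.092).

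With each library left out, the change called 210 to 773 genes, 119 to 453 higher and 76 to 320 lower, with 49 to 185 lost rises, 73 to 277 lost falls, 33 to 135 late rises and 10 to 87 late falls. Heat called 972 to 1590 genes at 2 h and 671 to 1443 at 4 h, and 1273 to 2026 genes differed between HT_4h and HT_2h and 1895 to 2528 between the controls. Of 80 called genes among those named, 44 were called in all 16 fits. The sign turned for 4 uncalled genes, whose changes ranged from -0.65 to 0.10 for HSP70 Sevir.1G116600, -1.03 to 0.53 for HSFA3A, -0.26 to 0.17 for HSFB2C and -0.27 to 0.10 for HSFA6B. HSFA3A was 0.018 by limma on log2(TPM + 0.1), HSFBA2 -0.28 and -0.014 by limma with the larger and smaller pseudocount, and HSFA6B 0.0038 with total counts and 0.052 and 0.046 by limma with the larger and smaller one.

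Replicate letters did not pair the libraries, with correlations of same-letter deviations between -0.185 and 0.145 over 24 pairs. A replicate block on the 16 libraries called 923 genes, 519 higher and 404 lower, with 215 lost rises, 338 lost falls, 193 late rises and 156 late falls, close to the same libraries without the block.

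At this depth genes of few counts limit what can be told, although recovery in the simulation was not split by count. There 76 of 100 simulated 4-fold changes were recovered but 19 of 100 of 2-fold, without the time-of-day, index or organelle-like differences of the real libraries.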
